A study of Mus musculus with 12 samples.

Results

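The cytosolic ribosomal proteins are the protein building blocks of the small (40S) and large (60S) ribosomal subunits, and their messenger RNAs are among the most abundant in growing cells. They were chosen by name: gene rows named Rps or Rpl with a number and at most a short ending, together with Rpsa, Rplp0, Rplp1 and Rplp2. Rpl10l, whose name fits that pattern, was left out by name. The rule found 82 of the 26218 genes, 32 for the small subunit and 50 for the large subunit, and the rule itself uses no measured value. All 82 were matched to RefSeq, on 19 chromosomes, and 4 of them (Rps4x, Rpl10, Rpl36a and Rpl39) are X-linked.

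A ribosome is known to need most of its proteins in equal numbers, and their genes are usually expressed in step. Most of their messenger RNAs begin with a terminal oligopyrimidine (TOP) tract, through which the mTOR pathway and the protein Larp1 are known to control translation. Some members have a second, similar gene (a paralog). Rpl39l and Rpl10l are known for expression in the male germ line, where they stand beside Rpl39 and Rpl10.

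The 12 mouse libraries fell into 6 groups of 2. RNA sequencing of the 3′ end, which reads the end of each transcript, was applied to primordial germ cell-like cells (PGCLCs) after 3, 5 or 7 days of expansion culture (d4c3, d4c5 and d4c7). Those cells were made from embryonic stem cells of strain C57BL/6 by way of epiblast-like cells, taken on day 4 of induction, expanded over m220 feeder cells, and sorted for the Blimp1-mVenus reporter. They also carried a Stella-ECFP reporter. The other groups were primordial germ cells (PGCs) from embryos at E9.5 and male and female germ cells at E12.5 (E gives the embryonic day). These came from ICR:C57BL/6=1:1 embryos and were sorted for Stella-EGFP. Libraries were amplified from 10 ng of RNA for culture and 1 ng for embryo. Culture and embryo therefore differ in strain, reporter, sort and RNA input as well, and these cannot be told apart from culture itself. The labels do not say whether the 2 libraries of a group came from separate cultures or litters, and a p-value here reflects only the spread between libraries within groups, pooled over the 6 groups and moderated across genes.

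Values are RPM, the reads of a gene scaled to a fixed total of reads assigned to genes. Reads per library were estimated at 2219175 to 5817990 from the step between low RPM values. The deepest library, d4c7 replicate 2, stood apart. Its spike-in control RNAs summed to 0 RPM, against 59.6 to 72.7 RPM in the other culture libraries, and its members differed from those of d4c7 replicate 1 by a root mean square of 0.38 on the log2 scale. The same measure was 0.18 in d4c3, 0.19 in d4c5 and 0.08 to 0.10 in the embryonic groups. In d4c7, 12 members were higher and 2 lower in replicate 2 by more than 0.5 (log2), and across the 81 tested members this difference between replicates had a correlation of 0.58 with the GC content of the coding sequence. In the embryonic groups spike-in RNAs summed to 628 and 1372 RPM at E9.5 and to 12107 to 16494 RPM at E12.5. Of 10 germ cell markers none was at 0 in any group, with sums of 2629 to 7660 RPM. Dppa3 (Stella), whose reporter was used to sort the embryonic cells but not the cultured ones, led them in every group.

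Sequences are shown first for the paralog pairs, because the pairs differed in how they changed between groups and because a read can be assigned to one gene only where the copies differ. Rpl39 (chrX:37082518-37085222) and Rpl39l (chr16:10170197-10174911) both have coding sequences of 156 bases that differ at 23 positions, 16 of them at the last base of a codon. Capitals mark the differing bases, and sequences are from GENCODE M21 on GRCm38.
Rpl39: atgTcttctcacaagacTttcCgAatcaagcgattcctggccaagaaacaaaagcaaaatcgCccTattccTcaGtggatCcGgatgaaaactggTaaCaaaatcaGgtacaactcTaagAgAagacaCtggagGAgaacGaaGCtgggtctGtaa
Rpl39l: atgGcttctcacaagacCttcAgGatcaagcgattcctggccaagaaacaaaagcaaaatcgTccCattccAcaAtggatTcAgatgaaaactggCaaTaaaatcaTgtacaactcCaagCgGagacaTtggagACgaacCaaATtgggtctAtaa
Rps27 (chr3:90212667-90213648) and Rps27l (chr9:66944624-66949522) have coding sequences of 255 bases that differ at 61 positions, 53 of them at the last base of a codon.
Rps27: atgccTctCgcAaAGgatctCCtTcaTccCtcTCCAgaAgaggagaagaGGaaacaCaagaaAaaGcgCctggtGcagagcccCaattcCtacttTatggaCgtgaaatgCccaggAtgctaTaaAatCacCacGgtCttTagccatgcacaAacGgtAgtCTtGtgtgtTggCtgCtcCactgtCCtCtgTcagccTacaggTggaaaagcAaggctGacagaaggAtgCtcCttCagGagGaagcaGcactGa
Rps27l: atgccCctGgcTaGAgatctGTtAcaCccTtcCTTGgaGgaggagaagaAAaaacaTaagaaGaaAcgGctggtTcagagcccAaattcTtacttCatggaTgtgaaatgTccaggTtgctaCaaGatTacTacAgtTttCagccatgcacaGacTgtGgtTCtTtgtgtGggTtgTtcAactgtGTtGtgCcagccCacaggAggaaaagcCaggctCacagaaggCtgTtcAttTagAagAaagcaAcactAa
The identity of the coding sequences was 85.26% for the first pair and 76.08% for the second. Such differences reach the 3′ end of the coding sequence, the side that these libraries read towards, but stretches between them are identical. Rpl39 and Rpl39l share a long identical stretch in the first part of their coding sequences. The transcript beyond the coding sequence was not compared.

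Most members have copies elsewhere in the annotation that are much closer than these paralogs. The last 150 coding bases of 78 of the 82 members had at least 1 match of at least 95% identity over at least 90% of their length in the annotated transcripts of other genes. The median was 5 copies and the most was 59 (Rpl21), and only 65 of the 683 copies had a row of their own. Rpl8, Rpl39l and Rpl3l were among those with none. How reads shared with such copies were assigned is not given in the sources used here, so the values of the 78 genes with a copy are uncertain to that extent.

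Promoter sequence is shown because members that rose and members that fell could be compared for letters of the kind found in TOP tracts. The letters CTTTC, a run of pyrimidines of the kind found at TOP starts, were searched on the gene's strand in the 40 bases centred on the RefSeq start (20 before and 20 after, GRCm38.p6). They were present in 18 of the 62 members with a promoter entry (29.03%), and in 1454 of 27025 genes (5.38%). The search took a match on either side of the start, so a match does not show a TOP tract. Capitals mark the matches in 4 members described below that fell or rose after E9.5, and in Rpl39l. The match in Rpl39l and the first match in Rps27 lie before the annotated start.
Rps27, chr3:90213629-90213668, minus strand: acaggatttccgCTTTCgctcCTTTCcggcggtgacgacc
Rpl38, chr11:114668560-114668599, plus strand: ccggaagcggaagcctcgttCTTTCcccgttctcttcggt
Rpl15, chr14:18270967-18271006, minus strand: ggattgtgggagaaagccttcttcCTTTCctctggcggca
Rpl18, chr7:45718051-45718090, plus strand: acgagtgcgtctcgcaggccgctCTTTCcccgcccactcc
Rpl39l, chr16:10170208-10170247, plus strand: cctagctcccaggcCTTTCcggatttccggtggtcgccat
The letters stood in genes that fell as well as in genes that rose. Of the members called between E12.5 males and E9.5 that had a window, 3 of 8 that rose and 4 of 18 that fell held them. In females the counts were 3 of 10 and 3 of 10.

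Together the members took between 17.8% and 20.8% of all gene reads in a library. Their mean share was 18.3% ± 0.770 in d4c3, 18.1% ± 0.283 in d4c5 and 18.7% ± 0.837 in d4c7 (SD, n = 2 each). It was 20.8% ± 0.0160 at E9.5, 19.7% ± 0.0944 in E12.5 males and 20.6% ± 0.0893 in E12.5 females (SD, n = 2 each). The lowest embryonic library (19.6%) lay above the highest culture library (19.3%, d4c7 replicate 2), so culture and embryo did not overlap. Small-subunit genes made up 41.6% to 44.2% of the members' RPM. They were lowest in the E12.5 male libraries, at 41.6% and 41.7%. Between 60 and 68 of the 100 genes with the highest RPM in a library were members. The 76 mitochondrial ribosomal protein genes, which build the separate ribosome of mitochondria, summed to 7359.5 to 7882.5 RPM as group means.

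**Figure D1:**
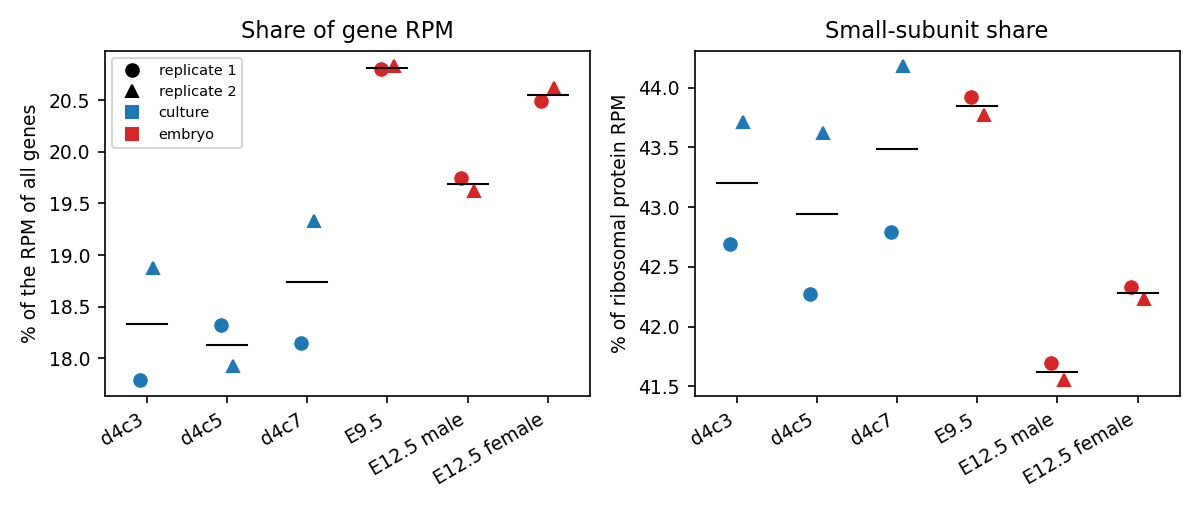
Left, the summed RPM of the 82 ribosomal protein genes as a percentage of all gene RPM in each library. Right, the percentage of that sum from small-subunit genes. Circles are replicate 1, triangles replicate 2, bars group means, blue culture and red embryo, and the axes do not start at 0. Embryonic libraries lie at 19.6% or more and culture libraries at 19.3% or less on the left.

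Individual members spanned a wide range. Rpl3l, a paralog of Rpl3 known from muscle, read 0.444 to 2.24 RPM and was not tested, because it did not reach 5 RPM in 2 libraries. The other 81 passed this filter, so the tests below cover 81 of 82. Among those, Rpl7l1 (47.0 to 80.4 RPM) and Rpl39l (26.0 to 389 RPM) were the lowest and Rpl23 (4744 to 5748 RPM) was the highest by median. These values are RPM and are not divided by transcript length. The distance from the lowest to the highest group mean had a median of 0.52 (log2) over the 81 members. It was under 0.5 for 39 of them and over 1 for 13. Rpl3, a large-subunit protein close to the peptidyl transferase centre, moved least, with group means within 0.06 of each other and libraries between 1621 and 1807 RPM. Rpl39l had the widest distance, 3.71.

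Over expansion culture 2 ribosomal protein genes passed the test, and neither did so in every fit. Between d4c3 and d4c7, 2 of 81 members rose and none fell by limma with Benjamini-Hochberg adjustment over 10856 genes. At an unadjusted p under 0.05, 7 members were higher and 0 lower. Across all genes 2.75% were called, 1.67% higher and 1.08% lower, so the members' share was near the background. The members' median log2 change was 0.04, against 0.02 for all genes. Rpl39l, a germ line form of a small large-subunit protein that lies in the peptide exit tunnel, read 108 and 83.1 RPM in d4c3. It read 369 and 186 RPM in d4c5, and 379 and 174 RPM in d4c7. All d4c5 and d4c7 libraries were above both d4c3 libraries, but replicate 2 differed from replicate 1 by -1.12 (log2) in d4c7 and by -0.99 in d4c5. Its log2 change was 1.43 ± 0.31 (SE), adjusted p = 0.026. Rps9, a core small-subunit protein, read 396 and 380 RPM in d4c3 and 478 and 608 RPM in d4c7, a log2 change of 0.47 ± 0.12 (adjusted p = 0.047).

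Neither call was stable. Rpl39l was not called with either d4c3 library left out or with d4c7 replicate 1 left out (adjusted p = 0.121, 0.167 and 0.0919), and its log2 change was 0.87 without d4c7 replicate 1. Rps9 lost its call without either d4c3 library (adjusted p = 0.204 and 0.192) and without d4c7 replicate 2 (adjusted p = 0.107), where its log2 change was 0.30. The number called was 14, all higher, when d4c7 replicate 1 was left out, so that replicate 2 alone stood for the group, against 2.42% of all genes. Without d4c7 replicate 2 it was 2, against 7.24% of all genes, with Rpl39l higher (1.99 ± 0.26) and Rps16, a small-subunit protein, lower (-0.55 ± 0.15). Without d4c3 replicate 1 it was 0 and without d4c3 replicate 2 it was 1, against 0.286% and 1.29% of all genes.

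From E9.5 to E12.5 a set of small ribosomal proteins fell in both sexes, led by Rps27, Rps29, Rps28, Rpl38 and Rpl39, while Rpl39l rose 13.1-fold in males and 12.1-fold in females. In males 34 of 81 members were called by limma with Benjamini-Hochberg adjustment, 10 higher and 24 lower. Among all genes 37.7% were called, 20.0% higher and 17.6% lower. In females 24 of 81 were called, 12 in each direction, against 37.5% of all genes (20.4% higher, 17.1% lower). With the median log ratio set to 0 the split in females was 8 higher and 13 lower. The members called were 42.0% in males and 29.6% in females. The members' median change was -0.11 in males and -0.05 in females, and that of all genes was 0.05 and 0.04. The male and the female comparison share the E9.5 libraries, so their likeness is not independent.

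Rps27, a zinc finger protein of the small subunit, read 1472 and 1513 RPM at E9.5. It read 455 and 449 RPM in the E12.5 male and 490 and 496 RPM in the female libraries. All E12.5 libraries lay below both E9.5 libraries, a fall of 1.72 ± 0.09 (log2, SE) in males and 1.60 ± 0.09 in females, with adjusted p = 1.8e-08 and 7.6e-08. Rps29, which binds the RNA of the small-subunit head, read 2307 and 2493 RPM at E9.5, 955 and 936 RPM in the male and 1008 and 1055 RPM in the female libraries. Its log2 change was -1.34 ± 0.14 in males and -1.22 ± 0.14 in females. Rps28 read 1612 and 2023 RPM at E9.5, 780 and 773 RPM in the male and 880 and 947 RPM in the female libraries. Its E9.5 libraries differed more than those of the other genes here, and the log2 change was -1.22 ± 0.12 and -0.98 ± 0.12. None of these genes overlapped between the stages in either sex, but neither did 8100 of 10856 genes in males and 8135 in females.

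The large subunit held similar cases. Rpl38, a small protein whose loss in mice is known to disturb the axial skeleton, read 1468 and 1492 RPM at E9.5, 801 and 749 RPM in the male and 831 and 761 RPM in the female libraries. It fell by 0.93 ± 0.10 and by 0.90 ± 0.10 (log2). Rpl41, the shortest member with 78 coding bases, read 3675 and 3461 RPM at E9.5 and 2483 to 2615 RPM in the 4 E12.5 libraries. It fell by 0.48 ± 0.09 in males and by 0.51 ± 0.09 in females. Rps19, the small-subunit protein most often mutated in Diamond-Blackfan anaemia, read 1737 and 1718 RPM at E9.5 and 1052 to 1171 RPM at E12.5. Its log2 change was -0.69 ± 0.17 in males and -0.63 ± 0.17 in females. The call of Rps19 was lost in males without E9.5 replicate 1 (adjusted p = 0.0526). In females it was lost with E9.5 replicate 1, E9.5 replicate 2 or female replicate 2 left out (adjusted p = 0.0745, 0.0690 and 0.0840).

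Rpl39 and Rpl39l moved in opposite directions. Rpl39 read 597 and 571 RPM at E9.5, 166 and 154 RPM in the E12.5 male and 283 and 270 RPM in the female libraries. It fell by 1.86 ± 0.15 in males and by 1.08 ± 0.15 in females. Rpl39l read 26.04 and 29.96 RPM at E9.5, 369 and 389 RPM in the male and 354 and 342 RPM in the female libraries. It rose by 3.71 ± 0.31 and 3.59 ± 0.31 (log2), adjusted p = 1.1e-06 and 2.2e-06. The log2 ratio of Rpl39l over Rpl39, used here only to compare libraries, was -4.52 and -4.25 at E9.5. It was 1.15 and 1.33 in males, 0.32 and 0.34 in females, and between -2.65 and -0.73 in the 6 culture libraries. In culture Rpl39 itself stayed between 433 and 647 RPM.

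Rps27l, a paralog of Rps27 known as a p53 target, did not follow Rps27. It read 687 and 596 RPM at E9.5 and 552 to 692 RPM at E12.5, changes of -0.16 ± 0.10 in males and 0.06 ± 0.10 in females that did not pass the test. The log2 ratio of Rps27l over Rps27 went from -1.10 and -1.34 at E9.5 to between 0.30 and 0.50 at E12.5. The log2 ratio of Rpl22l1 over Rpl22 lay between -0.74 and -0.62 in these 6 libraries, and that of Rpl7l1 over Rpl7 between -6.41 and -5.70. Rpl22, a large-subunit protein that is not essential for translation, and its paralog Rpl22l1 both fell in males (-0.27 ± 0.08 and -0.32 ± 0.10). The calls were lost in males without male replicate 2 or without either E9.5 library, and for Rpl22l1 also without male replicate 1 (adjusted p up to 0.147 and 0.167). Neither passed the test in females (-0.14 ± 0.08 and -0.08 ± 0.10). Rpl7 and Rpl7l1 passed it in neither sex.

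**Figure D2:**
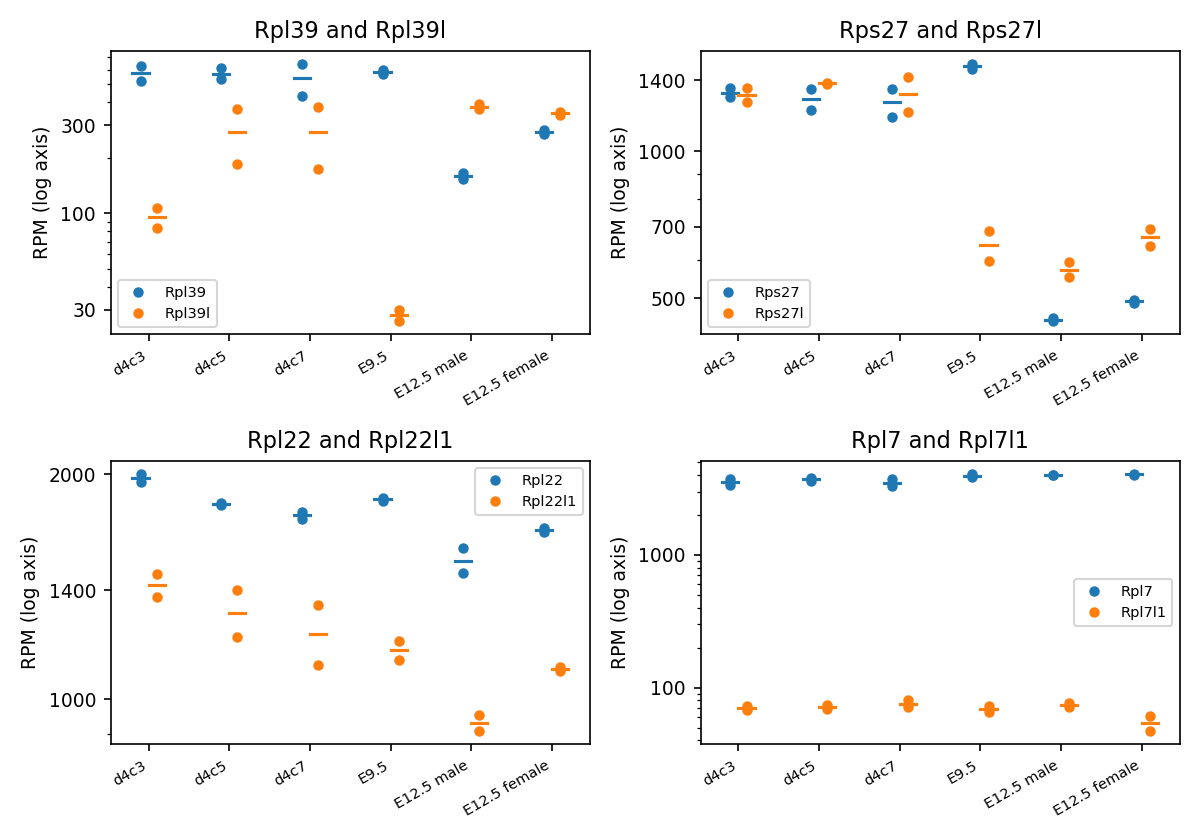
RPM on a log axis for 4 paralog pairs in the 6 groups, with a point for each library and a bar at the group mean. Rpl39l is at 26.04 and 29.96 RPM at E9.5 and above 340 RPM in all E12.5 libraries, while Rpl39 and Rps27 are lowest at E12.5.

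Of the members that rose, 8 of 10 in males and 10 of 12 in females belonged to the large subunit, which holds 49 of the 81 tested. Most of these rises lost their call when 1 library was left out. Those kept whichever library was left out were Rpl15, Rpl34 and Rpl39l in males. In females they were Rpl10, Rpl15, Rpl34, Rpl39l and the small-subunit Rps4x. Rpl15, which is needed for large-subunit assembly, read 644 and 663 RPM at E9.5, 1002 and 1080 RPM in the male and 862 and 998 RPM in the female libraries. It rose by 0.67 ± 0.10 in males and 0.50 ± 0.10 in females. Rpl34 read 1535 and 1501 RPM at E9.5 and 2190 to 2377 RPM at E12.5, rises of 0.58 ± 0.12 and 0.63 ± 0.12. Rpl18 read 2156 and 2141 RPM at E9.5 and 3087 to 3196 RPM at E12.5 (0.54 ± 0.16 and 0.57 ± 0.16). Rplp1, an acidic protein of the stalk that recruits elongation factors, read 3510 and 3710 RPM at E9.5 and 5023 to 5271 RPM at E12.5 (0.51 ± 0.15 and 0.50 ± 0.15). Its stalk partner Rplp2 passed the test in neither sex (-0.14 ± 0.12 and -0.24 ± 0.12). Rpl18 and Rplp1 lost their calls in both sexes when any library of the groups compared was left out, with adjusted p of up to 0.114. Rpl5 and Rpl11, which carry the 5S ribosomal RNA and are known to bind Mdm2, did not pass the test in either sex, and neither did Rps6, the substrate of S6 kinase.

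The shortest members were mostly lower after E9.5, although across all 81 members the log2 change had a correlation of only 0.16 with log2 coding length in males and 0.09 in females. Of the 11 tested members with a coding sequence under 300 bases, 9 were called in males (1 higher, 8 lower), with a median of -0.48. In females 8 were called (1 higher, 7 lower), with a median of -0.51. The single riser was Rpl39l in both. Of the 70 longer members 25 were called in males (9 higher, 16 lower) and 16 in females (11 higher, 5 lower). Genes outside the family gave these counts: of 211 other tested genes under 300 coding bases, 93 fell and 25 rose in males and 91 and 25 did so in females. The medians of those genes were -0.44 and -0.37, against 0.08 and 0.06 for 9899 longer ones. The part of coding length or transcript length in the fall was not tested.

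**Figure D3:**
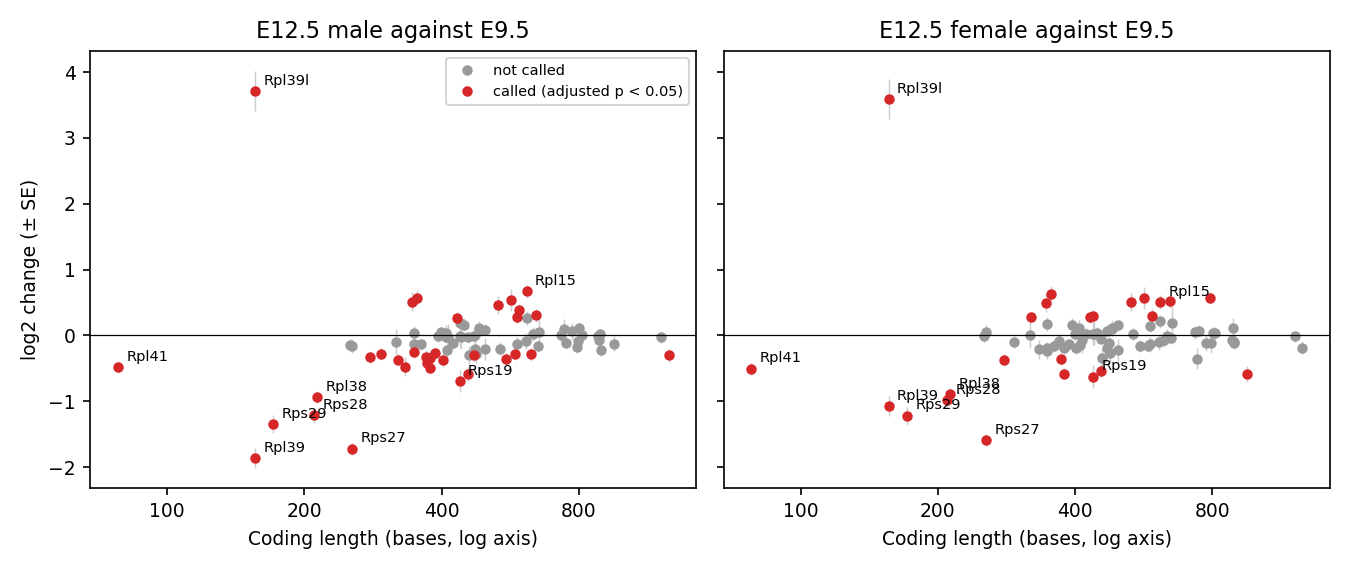
The log2 change from E9.5 to E12.5 (± SE) of the 81 tested members against their coding length on a log axis, in males (left) and females (right). Red points passed an adjusted p of 0.05 and grey points did not. Below 300 bases most points lie under 0 and Rpl39l alone lies far above it.

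By their sums, markers of cells other than germ cells were highest at E9.5 for blood and for stroma. The 12 blood and endothelium markers summed to 4123 and 4655 RPM there, led by Hbb-y, with Cdh5 at 0. They summed to at most 172 RPM in every other group. The 12 fibroblast and stroma markers summed to 698 and 726 RPM at E9.5, with none at 0, to 341 to 397 RPM at E12.5 and to 213 to 509 RPM in culture, where Fn1 led. The 10 hindgut and endoderm markers summed to 127 to 236 RPM in all groups and the 12 gonadal somatic markers to at most 30.2 RPM. Epcam led the hindgut list in every group, so its sum says little of the others. Afp read 15.8 and 20.8 RPM at E9.5 and at most 0.301 RPM elsewhere. At E9.5 0 hindgut markers stayed under 1 RPM in both libraries, against 5 to 8 in the other groups. Of the 4 tested, 3 fell after E9.5 in males and 2 in females, and 0 rose. The part of these cells in the changes after E9.5 was not tested. In such bulk samples a change in which cells were sorted and a change in RNA per cell cannot be told apart.

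Fewer members, and fewer genes of any kind, passed with a library left out. In males the number called was 20 without male replicate 1, 13 without male replicate 2, 13 and 14 with the first or the second E9.5 library left out. The share of all genes called was 26.2%, 24.4%, 23.2% and 23.1% in these fits. In females it was 17, 18, 16 and 15 in the same order, against 25.6%, 25.1%, 23.1% and 22.6% of all genes. The 12 members called in males whichever library was left out were Rpl15, Rpl34, Rpl35, Rpl38, Rpl39, Rpl39l, Rpl41, Rps14, Rps25, Rps27, Rps28 and Rps29. In females 15 were: Rpl10, Rpl15, Rpl34, Rpl37a, Rpl38, Rpl39, Rpl39l, Rpl41, Rplp0, Rps14, Rps25, Rps27, Rps28, Rps29 and Rps4x.

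Between the sexes at E12.5 the genes higher in females were all X-linked: Rps4x, Rpl36a and Rpl39. By limma with Benjamini-Hochberg adjustment 3 of 81 members were higher and 1 was lower in females. Of all genes 11.9% were called, 6.68% higher and 5.27% lower, and of the members 4.94% were. The members' median was 0.06 and that of all genes -0.00. Of the 4 X-linked members 3 were called, all higher in females, and of the 77 autosomal members 1 was called. For X-linked genes outside the family the counts were also uneven: of 405 tested, 114 were higher and 5 lower in females, with a median of 0.43. Among 10008 other genes matched to autosomes, 593 were higher and 554 lower, with a median of -0.01.

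Rps4x, a small-subunit protein, read 3749 and 3718 RPM in the male and 6200 and 6382 RPM in the female libraries, against 4293 and 4163 RPM at E9.5. The female libraries were the highest of all 12, and the log2 difference was 0.75 ± 0.09 (SE), adjusted p = 0.00017. Rpl36a, a large-subunit protein near the exit site of the ribosome, read 1627 and 1491 RPM in the male and 2452 and 2407 RPM in the female libraries. Its E9.5 libraries read 1998 and 2018 RPM, between the sexes. The difference was 0.64 ± 0.08, adjusted p = 0.00026. Against E9.5 it fell by 0.37 ± 0.08 in males and rose by 0.27 ± 0.08 in females. The rise in females lost its call when any of the 4 libraries compared was left out (adjusted p = 0.0771 to 0.104), and the fall in males without male replicate 2 (adjusted p = 0.0571). Rpl36al, its autosomal paralog outside the name rule, read 563 and 524 RPM in the male and 629 and 619 RPM in the female libraries.

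Rpl39 fell less in females than in males, a difference of 0.78 ± 0.15 (adjusted p = 0.0047). That call was lost without female replicate 1 (adjusted p = 0.0520) and without male replicate 2 (adjusted p = 0.0561). Rpl10, the last X-linked member, joins the large subunit late in its assembly. It read 3811 and 3937 RPM in the male and 4320 and 4658 RPM in the female libraries. The groups did not overlap, as was so for 6427 of 10856 genes. The difference of 0.21 ± 0.10 did not pass the test. Rpl10 had risen in both sexes since E9.5 (3100 and 3168 RPM), by 0.31 ± 0.10 and 0.52 ± 0.10, and the male call was lost when any of the 4 libraries was left out (highest adjusted p = 0.128).

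Rplp0, the protein that anchors the stalk, was the autosomal exception. It read 3475 and 3435 RPM in the male and 2433 and 2590 RPM in the female libraries, a difference of -0.46 ± 0.12 (adjusted p = 0.020). The call was lost when any of the 4 libraries was left out, with adjusted p of 0.0829 to 0.146. Rpl7l1 had a similar difference, -0.45 ± 0.15, and did not pass the test. Rps4x and Rpl36a were the members called between the sexes whichever library was left out.

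**Figure D4:**
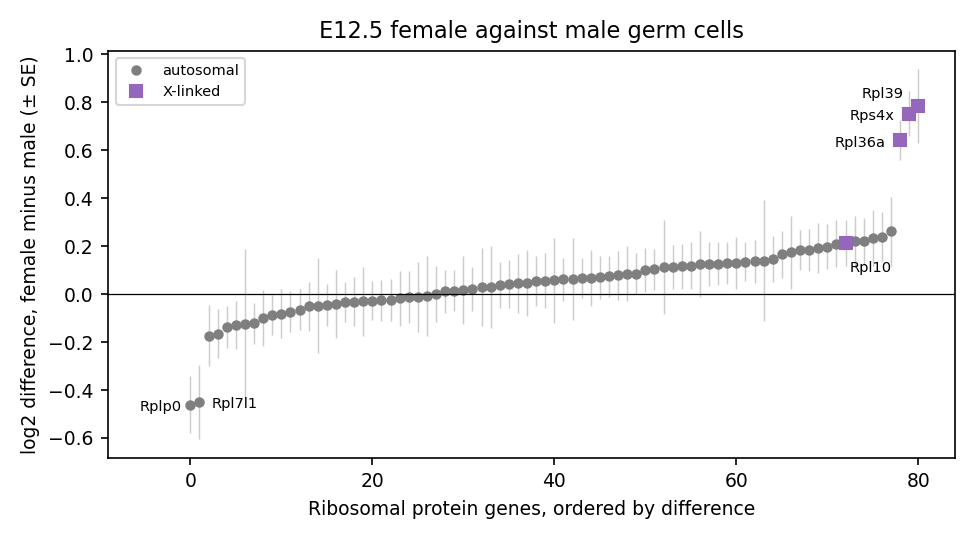
The log2 difference between E12.5 female and male germ cells (± SE) for the 81 tested members in order of size, with X-linked genes as purple squares and autosomal genes as grey circles. Rpl36a, Rps4x and Rpl39 stand at 0.64 to 0.78, above every autosomal member, and Rpl10 stands at 0.21.

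Between culture and embryo, each taken as the mean of 3 group means, more members were lower in PGCLCs than higher. By limma with Benjamini-Hochberg adjustment 55 of 81 were called, 17 higher and 38 lower. Of all genes 54.5% were called, 27.7% higher and 26.8% lower. The members' median was -0.15, against -0.01 for all genes. With each library left out in turn, d4c7 replicate 2 included, more members were called lower than higher. Some calls were lost in such fits, among them those of Rplp0, Rpl7, Rpl34, Rpl22 and Rpl23a.

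Of the small-subunit members 12 of 32 were lower in culture and 7 higher, and of the large-subunit members 26 of 49 were lower and 10 higher. Rps15, which binds at the small-subunit head, read 220 to 251 RPM in 5 culture libraries and 370 RPM in d4c7 replicate 2. Its embryonic libraries read 500 to 581 RPM, and the log2 difference was -1.09 ± 0.10 (adjusted p = 9.8e-07). Rplp1 read 1993 to 3091 RPM in culture and 3510 to 5271 RPM in embryo (-0.95 ± 0.08). Rpl18 read 1284 to 2073 RPM in culture and 2141 to 3196 RPM in embryo (-0.89 ± 0.09). Rpl14 read 769 to 1627 RPM and 1831 to 2106 RPM (-0.88 ± 0.15). Rpl29 read 943 to 1208 RPM and 1700 to 1925 RPM (-0.87 ± 0.06). For each of these genes all embryonic libraries lay above all culture libraries, and d4c7 replicate 2 was the culture library nearest to the embryo. Of all 10856 genes 1681 had no overlap between culture and embryo, and of the 81 members 24 had none. Rpsa, the laminin receptor and a small-subunit protein, was also lower (-0.76 ± 0.09), as was the stalk protein Rplp2 (-0.51 ± 0.07).

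Rps27l was the member with the largest difference towards culture. It read 1207 to 1419 RPM in the 6 culture libraries and 552 to 692 RPM in the 6 embryonic ones, without overlap, a difference of 1.09 ± 0.06 (adjusted p = 9.4e-09). Rpl24, a large-subunit protein at the subunit interface, was next among genes without overlap, with 2811 to 3504 RPM in culture and 2247 to 2724 RPM in embryo (0.36 ± 0.07). Rps20 (0.22 ± 0.05) and Rpl23a (0.15 ± 0.05), the latter a protein near the tunnel exit, were smaller cases. The call of Rpl23a was lost without male replicate 2 (adjusted p = 0.0625), with the median log ratio set to 0 (0.0516), with RPM taken over the other genes (0.0566) and without the mean-variance trend (0.102). Rpl39 (0.91 ± 0.09), Rps27 (0.89 ± 0.05), Rps29 (0.45 ± 0.08) and Rps28 (0.37 ± 0.07) were called higher too, but their culture and embryonic libraries overlapped. For Rpl39, Rps27, Rps29 and Rps28 the E9.5 mean was above all culture means, and the E12.5 means were below them. The E9.5 means were 584, 1492, 2400 and 1817 RPM in that order. For Rpl39 the margin was small, with culture means of 540 to 574 RPM. Rpl39l did not pass the test in this comparison (0.25 ± 0.18) with all libraries. It was called higher without d4c5 replicate 2 (0.42, adjusted p = 0.0388) and without d4c7 replicate 2 (0.44, adjusted p = 0.00933).

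The GC content of the coding sequence moved with this comparison. Across the 81 members the log2 difference had a correlation of -0.62 with GC content. The points share the same 12 libraries, so this is a description only. Of the 21 members with GC over 55%, 19 were called, 2 higher (Rps28 and Rps29) and 17 lower, with a median of -0.55. Of the other 60, 15 were higher and 21 lower, with a median of -0.03. Over 10110 other genes with a coding model the correlation was -0.11, and the 3623 with GC over 55% had a median of -0.12. Without d4c7 replicate 2, whose members differed from replicate 1 with GC content, the correlation over the members was -0.64 and 18 of the 21 were lower. Coding length moved with this comparison too, with a correlation of -0.38 over the 81 members. Of the 11 members under 300 coding bases 6 were higher and 1 lower, and of the 70 longer ones 11 were higher and 37 lower. Of those 6, Rpl38, Rpl39, Rps27, Rps28 and Rps29 had E9.5 means above all culture means and E12.5 means below them. Rps27l alone had all embryonic group means below all culture means. The part of GC content, coding length, RNA input or amplification in the difference was not tested.

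**Figure D5:**
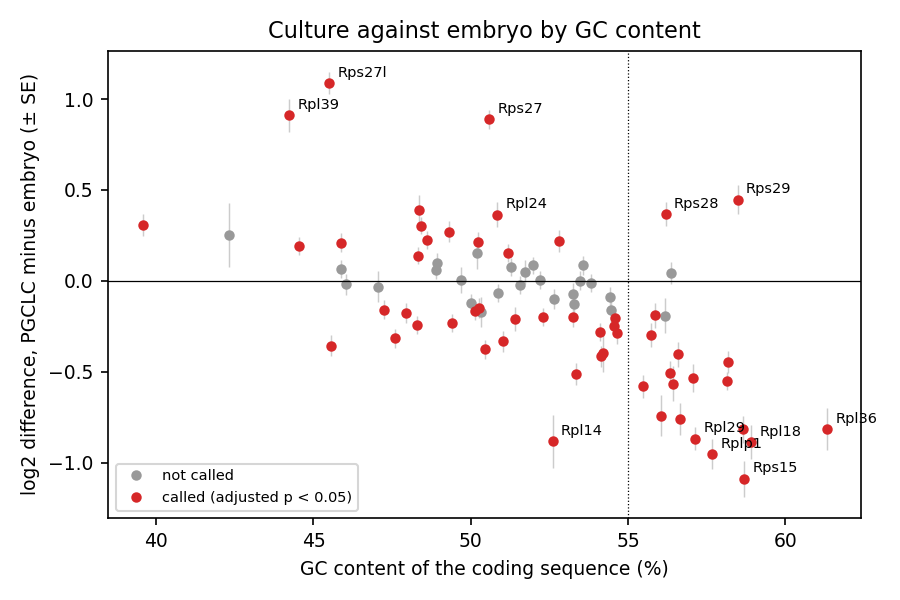
The log2 difference between PGCLCs and embryonic germ cells (± SE) for the 81 tested members against the GC content of the coding sequence, with a dotted line at 55%. Red points passed an adjusted p of 0.05. Right of the line 17 of 21 members were called lower, and Rps28 and Rps29 were called higher.

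Genes that work with the ribosomal proteins were taken from lists chosen for their roles. Of 47 ribosome biogenesis genes, 2 rose and 15 fell from E9.5 to E12.5 in females, and 7 rose and 7 fell in males. Of all genes 20.4% rose and 17.1% fell in females, and 20.0% and 17.6% in males. Between the sexes 1 was higher and 8 were lower in females, against 6.68% and 5.27% of all genes, and the list's median was -0.21. Tcof1, a nucleolar protein mutated in Treacher Collins syndrome, read 43.0 ± 6.06 RPM in females and 76.5 ± 10.1 RPM in males (SD, n = 2 each), a difference of -0.82 (adjusted p = 0.0081 by limma). Nop2, a ribosomal RNA methyltransferase, differed by -0.72 (adjusted p = 0.010). Nop58, a core protein of box C/D particles, was higher in culture by 1.08, and Nol6 was lower by 1.03. In that comparison 20 genes of the list were higher and 11 lower, against 27.7% and 26.8% of all genes. Between d4c3 and d4c7 0 were called by limma, and at an unadjusted p under 0.05 there were 1 higher and 3 lower.

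RNA polymerase I, which transcribes the large ribosomal RNAs, had 15 genes on its list. From E9.5 in males 5 rose and 0 fell, also 0 at an unadjusted p under 0.05, and 5 rose and 2 fell in females, beside the same shares of all genes as above. Polr1c, a subunit shared with RNA polymerase III, read 274 ± 0.139 RPM at E9.5, 283 ± 8.09 RPM in the male and 162 ± 0.146 RPM in the female group (SD, n = 2 each). The difference between the sexes was -0.80, and 1 gene, Rrn3, was higher in females by 0.72. Rrn3, an initiation factor of this polymerase, was also the gene of the list called between d4c3 and d4c7 (-0.69, adjusted p = 0.038). In PGCLCs 1 gene was higher and 5 lower than in embryo, against 27.7% and 26.8% of all genes.

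Of 16 other genes with TOP messenger RNAs, 0 rose and 3 fell in males (0 rose at an unadjusted p under 0.05), and 1 rose and 3 fell in females. The shares called, 18.75% and 25%, were below the 37.7% and 37.5% of all genes. Eif3f, a subunit of an initiation factor, fell from 691 ± 2.66 RPM at E9.5 to 265 ± 16.8 RPM in the male and 225 ± 43.4 RPM in the female group (SD, n = 2 each). Tpt1 fell by 0.54 and by 0.73 (log2). Against the embryo 3 of the TOP genes were higher and 3 lower in PGCLCs (37.5% called, against 54.5% of all genes). By limma 0 were called between d4c3 and d4c7 or between the sexes, against 2.75% and 11.9% of all genes. At an unadjusted p under 0.05 these were 3 lower and 0. Of 14 regulators of ribosomal protein synthesis, in males 2 rose and 1 fell, against 3 and 2 in females. The shares called were 21.4% and 35.7%, beside the same 37.7% and 37.5% of all genes. Myc fell by 1.14 and by 1.76 from 8.08 ± 2.09 RPM at E9.5, and Larp1 rose by 0.74 and 1.05 (log2). In culture 6 regulators were higher and 2 lower than in embryo (57.1% called, against 54.5% of all genes), and Mycl1 was the lowest at -2.15. By limma 0 were called between d4c3 and d4c7, with 1 higher at an unadjusted p under 0.05, and 0 between the sexes, with 2 higher and 2 lower.

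Of 5 ribosomal protein genes that are not members, the excluded Rpl10l had the widest change. It read 56.1 and 49.2 RPM in d4c3, 131 and 79.1 RPM in d4c5, and 106 and 69.8 RPM in d4c7. It read 5.88 and 12.7 RPM at E9.5, 134 and 146 RPM in the E12.5 male and 130 and 136 RPM in the female libraries. All E12.5 libraries were above both E9.5 libraries, with rises of 3.86 in males (adjusted p = 5.1e-07) and 3.78 in females (adjusted p = 6.6e-07). The log2 ratio of Rpl10l over Rpl10 went from -9.04 and -7.96 at E9.5 to between -5.10 and -4.75 at E12.5, and was between -6.05 and -4.62 in culture. Among the members, Rps27a, made as a fusion of ubiquitin with a small-subunit protein, was higher in PGCLCs than in embryo by 0.21 ± 0.05. Of 74 tested mitochondrial ribosomal protein genes, 1 was called higher between d4c3 and d4c7 (1.35%, against 2.75% of all genes). After E9.5, in males 15 rose and 11 fell, against 15 and 15 in females. The shares called, 35.1% and 40.5%, were near the 37.7% and 37.5% of all genes. Between the sexes 3 were higher and 9 lower in females (16.2% called, against 11.9% of all genes). Of all genes 6.68% were higher and 5.27% lower. In PGCLCs 20 were higher and 23 lower than in embryo (58.1% called, against 54.5% of all genes).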

How the data were processed

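Expression was measured in 12 libraries of mouse cells. The deposited values are RPM, reads that the authors scaled to the reads assigned to genes, with a near-constant column sum. Per the submitters' processing notes, cutadapt 1.3, TopHat 1.4.1, Cufflinks 2.2.0 and genome build mm10 were used. Multi-read handling and strand are not given in the sources used here. Of the RPM values worth up to 20 reads, 81.7% to 87.3% were whole reads within 0.1 read, so count tests were not run. Estimated depth makes a value of 0 compatible with up to 3 reads, counting error only.

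Values were taken as log2(RPM + 1). Genes with at least 5 RPM in at least 2 libraries (10856 of 26218) entered limma 3.58.1 in R 4.3.3 with all 12 libraries, a mean per group and a mean-variance trend. P-values were adjusted by Benjamini-Hochberg over all genes tested and called under 0.05. Fold changes are on the log2(RPM + 1) scale. The fit was run on simulated data for d4c7 against d4c3 only, with the same spread for all genes and groups. The groups here differ in spread, so that run does not test the pooled estimate of the spread.

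Members follow the name rule, and members, gene lists and tests were chosen with earlier results of these data known. Genes were named if on a fixed list (paralog pairs, X-linked, stalk, 5S particle and a few others), or among the 5 largest changes in each direction without overlap between groups, with up to 2 called genes per other list. Rpl8, Rpl21, Rpl23, Rpl35, Rpl36al, Rpl37a, Rpl41, Rps14, Rps16 and Rps25 fall outside this rule and were chosen after their values were seen. Alternatives covered the pseudocount, filter, scaling, trend, libraries fitted, replicate block and each library left out. Coding sequences came from GENCODE M21 and copies were found with BLAST 2.17.0.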

Additional observations from a re-analysis of the deposited data

Results flagged for a closer look

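In 4 members the change from E9.5 to E12.5 differed between the sexes by limma's test of that difference, which is the comparison of E12.5 females with E12.5 males and does not use the E9.5 libraries. The change in females minus the change in males was 0.78 (log2) for Rpl39, which fell in both sexes. It was 0.75 for Rps4x, which rose in females by 0.57 and changed by -0.18 in males, where it did not pass the test. For Rpl36a it was 0.64, from a fall of 0.37 in males and a rise of 0.27 in females. For Rplp0 it was -0.46, from -0.12 in males, which did not pass the test, and -0.58 in females. The calls of Rps4x and Rpl36a held with each library left out in turn, and those of Rpl39 and Rplp0 did not.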

How the results depend on the processing

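No result changed direction where it had been called. Between d4c3 and d4c7 the number of members called, 2 as reported, was 1 with a pseudocount of 0.5, and 0 without the filter on low values, without the mean-variance trend and with the 4 libraries compared alone, beside 2.44%, 0.515%, 1.69% and 0% of all genes. Leaving out 1 library gave 0 to 14. From E9.5 to E12.5 males (34) it was 14 without the trend, 52 with the libraries compared alone, and 13 to 20 with 1 library left out, beside 33.6%, 49.2% and 23.1% to 26.2% of all genes. For E12.5 females (24) these were 14, 47 and 15 to 18, beside 33.4%, 48.6% and 22.6% to 25.6%. Between the sexes (4) it was 9 with the libraries compared alone and 2 to 3 with 1 library left out, beside 11.9% and 4.96% to 5.22%. For culture against embryo (55, beside 54.5% of all genes) no alternative moved it by 1.5 times. The lowest was 43, without the mean-variance trend, beside 52.0% of all genes. Setting the median log ratio to 0 moved the members' median to -0.17 in males and -0.10 in females and gave 7 higher and 25 lower in males. The cause was not tested for any of these.

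Replicate numbers were shared by the groups but name no common culture, litter or day. A fit with the replicate block called 2, 35, 24, 4 and 56 members in the order above, beside 3.30%, 39.3%, 39.0%, 13.1% and 55.7% of all genes. Deviations of same-numbered libraries correlated over all genes by 0.12, 0.13 and 0.46 among culture groups and by -0.02 to 0.02 among embryonic ones. Over the members alone these were 0.58, 0.45 and 0.65 in culture and 0.21, 0.25 and 0.44 in embryo. The replicate block was also fitted over the culture libraries only, an alternative chosen after seeing the data. There 1 member was called between d4c3 and d4c7, beside 0.295% of all genes. Rpl39l kept its call and Rps9 lost it (adjusted p = 0.177 by limma).

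Also chosen after seeing the data, leaving out members under 300 coding bases gave 1 of 70 called between d4c3 and d4c7, and 25, 16, 3 and 48 in the other comparisons. These were 1.43%, 35.7%, 22.9%, 4.29% and 68.6% of the 70. Of all genes 2.75%, 37.7%, 37.5%, 11.9% and 54.5% were called in the same order. Depth limited low members most: a value of 0 would allow up to 1.35 RPM in the shallowest library.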
